A study of Mus musculus with 61 samples.

Results

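Wild-type stembryos were compared genome-wide between 96 h and 108 h after aggregation, the interval in which they begin to elongate. Genes were included when their mean level reached 1 FPKM or more at either stage, which 11923 of the 55052 genes in the tables did. FPKM gives fragments relative to the length of the transcript and to all fragments mapped in a library. Of these genes, 11014 reached that level at both stages, 537 at 96 h only and 372 at 108 h only. Stembryos, or gastruloids, are grown from aggregated mouse embryonic stem cells, here wild-type cells of the EmbryoMax 129/SVEV line grown in N2B27 medium with a pulse of Chiron, a GSK-3 inhibitor that activates Wnt signaling, which ended at 72 h. Each stage had 2 libraries of pooled stembryos in a time course of 8 stages, within a series of 61 RNA-seq libraries and 28 conditions. Of these libraries 26 were wild type, and the others came from lines with CTCF site deletions, larger deletions or an insertion at the HoxD locus. Stembryos were collected without selection up to 96 h, whereas from 108 h those that clearly elongated and showed no apoptosis were chosen, so that stage and selection cannot be told apart.

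Elongation of the vertebrate trunk is fed by a posterior growth zone in which neuro-mesodermal progenitors, which co-express T and Sox2, give rise to spinal cord and to presomitic mesoderm. Presomitic cells oscillate under a Notch and Wnt clock, leave the influence of posterior Wnt and FGF signals, meet retinoic acid from the somites and segment. Hox genes are activated in their order along each cluster during this time, from 3′ anterior to 5′ posterior members, and Cdx factors and Wnt signals contribute to that activation. As these are bulk libraries, fewer cells of a type and less RNA per cell cannot be told apart in any of the values that follow.

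The markers that define such aggregates were present in all 4 libraries. T, a T-box factor of the streak and tail bud, measured 107 and 70.4 FPKM in the 96 h libraries and 52.4 and 83.8 FPKM in those of 108 h. Sox2, a factor of neural and pluripotent cells, measured 18.4 and 5.58 FPKM at 96 h and 16.7 and 20.5 FPKM at 108 h. Tbx6, which specifies presomitic mesoderm, measured 159 and 110 FPKM at 96 h and 59.2 and 79.1 FPKM at 108 h. For these 3 genes the difference between stages did not pass the test.

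The 2 libraries of 96 h stood apart from each other, which bears on every comparison with them. Hoxb9, a posterior Hox gene, was at 115 FPKM in 96 h replicate 1 and at 5.53 FPKM in replicate 2, against 49.7 to 61.9 FPKM in 4 wild-type 96 h libraries that were not part of the time course. Cdx4, a posterior homeobox factor, was at 46.8 and 0.953 FPKM, against 13.9 to 27.8 FPKM outside. In the other direction Myl7, an atrial myosin light chain, was at 0.519 and 18.01 FPKM, against 0.217 to 1.13 FPKM outside, and Eomes, a T-box factor of the streak and endoderm, at 0.155 and 8.36 FPKM, against 0.0721 to 0.779 FPKM outside. Thus for these genes it was replicate 2 that lay outside the range of the other 96 h libraries in both directions, and for Hoxb9 and Cdx4 replicate 1 lay above it. Over all 11923 genes, the SD of the log2 difference between replicates was 0.98 at 96 h and 0.87 at 108 h, compared with 0.53 to 0.75 at the other 6 stages, and 325 genes (2.73%) differed at least 4-fold between the 96 h libraries against 160 (1.34%) at 108 h. Depth did not separate them, with 22.8 and 21.6 M (mega) fragments inferred at 96 h and 23.2 and 22.3 M at 108 h. Whether culture, stage of development or handling differed between the 2 libraries was not tested.

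Between 96 h and 108 h, 700 genes (5.87%) were higher and 737 genes (6.18%) were lower at 108 h at an adjusted p under 0.05 in limma with Benjamini-Hochberg adjustment, and 10486 did not pass. The median log2 change was 0.00 over all genes, with 5th and 95th percentiles of -0.84 and 0.72, on the scale log2(FPKM + 0.1). Among the calls, 218 of the higher genes and 263 of the lower ones changed by at least 1 on the log2 scale. Both 108 h libraries lay above both of 96 h in 668 of the 700, where 22.0% of all genes did so, and below them in 721 of the 737, where 24.1% did so. This test took its estimate of spread from all 61 libraries, of wild-type and mutant lines. With the wild-type libraries alone 227 genes were called higher and 262 lower, and with the 4 libraries alone 19 and 16. P-values thus measure the spread between replicate libraries pooled over all 28 conditions, for which the study states at least 2 biological replicates. Replicates of 96 h and 108 h differed more than those of other time-course stages. The pooled spread can therefore be too small for this contrast.

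The number of calls depended on the 96 h libraries. Without replicate 2, 343 genes (2.88%) were higher and 342 (2.87%) lower, of which 259 and 257 were among the original calls. Without replicate 1, 1063 genes (8.92%) were higher and 952 (7.98%) lower, with 548 and 580 of the original calls kept. A stricter set was therefore counted after seeing the data, of genes called with the same sign when each of the 4 libraries was left out in turn. It held 148 higher genes (1.24%) and 161 lower genes (1.35%), of which 143 and 154 were above 0 FPKM in all 4 libraries. The 700 and 737 calls are referred to below as genes that rose or fell, and the stricter set as genes called without each library. Where a gene is said to have risen or fallen with no word on the stricter set, its call may have been lost without 1 or more of the 4 libraries.

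**Figure D1:**
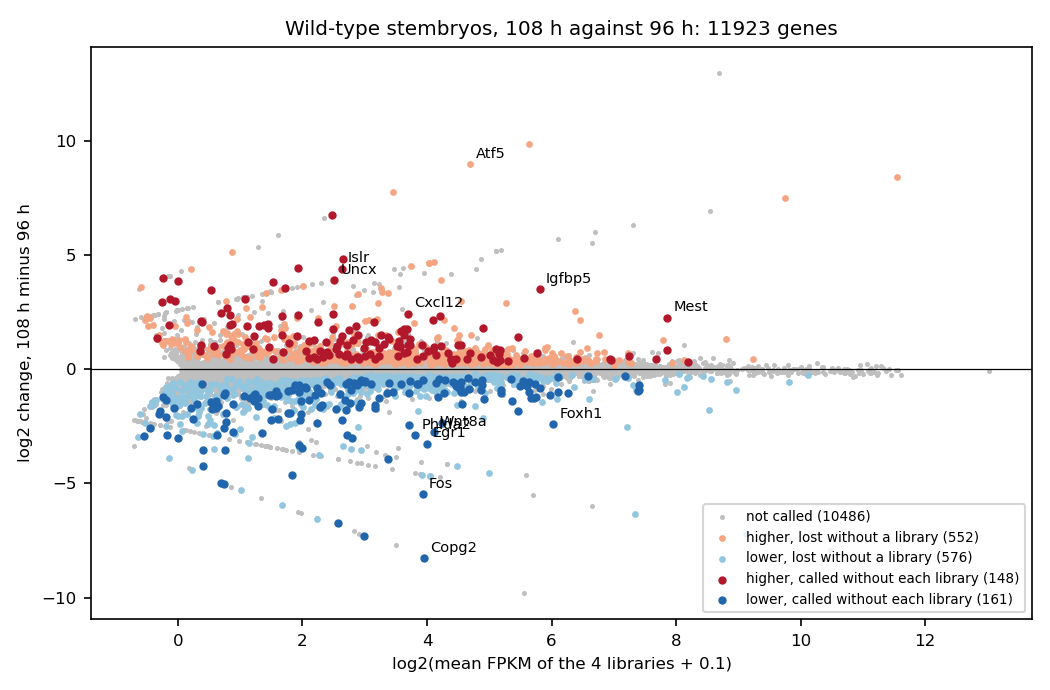
Each point is 1 of 11923 genes, with the log2 of its mean FPKM over the 4 libraries plus 0.1 on the horizontal axis and its log2 change from 96 h to 108 h on the vertical axis. Grey genes were not called, pale colors mark calls lost when 1 library was left out, and dark red and dark blue mark the 148 higher and 161 lower genes called without each library, and Igfbp5 and Mest lie at the high levels on the upper side while Wnt8a and Foxh1 do so on the lower side.

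The largest rises included homeobox factors of somites, forkhead factors and secreted proteins. The 12 largest rises among genes called without each library, above 0 in all 4 libraries and with a mean of at least 5 FPKM at 108 h, were those of Islr, Uncx, Bmp3, Foxd2, Igfbp5, Cxcl12, Sema3c, Meox2, Halr1, Foxd1, Mest and Dact2, a selection made after their values were seen. In all 12 the 2 libraries of 108 h lay above those of 96 h, as the plot of values by library shows. Every gene called without each library was separated in this way, so that this describes the selection.

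Uncx (ENSMUSG00000029546, chr5:139543494-139548179), a homeobox factor of the posterior compartment of somites, was at 0.584 and 0.595 FPKM at 96 h and at 8.02 and 13.1 FPKM at 108 h, with a log2 change of 3.91 ± 0.75 (SE; adjusted p = 0.00059 in limma). Meox2, a homeobox factor of somites, went from 0.922 and 1.37 FPKM to 5.798 and 6.70 FPKM, a log2 change of 2.37 ± 0.50 (adjusted p = 0.0015). Both genes were near 1 FPKM or below in each 96 h library and above 5 FPKM in each 108 h library. The forkhead factors Foxd2, at 0.199 and 0.744 FPKM and then 5.17 and 6.68 FPKM, and Foxd1, at 0.835 and 1.08 FPKM and then 4.93 and 5.48 FPKM, rose by 3.57 ± 0.34 and 2.34 ± 0.45 on the log2 scale.

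Secreted proteins made up another share of these rises. Igfbp5 (ENSMUSG00000026185, chr1:72857932-72874884), which binds insulin-like growth factors, was at 7.17 and 10.9 FPKM at 96 h and at 87.9 and 118 FPKM at 108 h, an 11.4-fold higher mean and a log2 change of 3.51 ± 0.32 (adjusted p = 2.4e-09). Cxcl12 (ENSMUSG00000061353, chr6:117168535-117181367), the chemokine ligand of Cxcr4, went from 3.52 and 4.33 FPKM to 20.9 and 22.7 FPKM, a log2 change of 2.45 ± 0.25 (adjusted p = 1.7e-08). In both genes the gap between the stages was wider than the gap between replicates. Islr, a secreted protein with an immunoglobulin domain and leucine-rich repeats found in mesenchyme, was at 1.21 and 0.121 FPKM at 96 h and at 9.89 and 13.1 FPKM at 108 h, with a log2 change of 4.42 ± 0.42 in which the low value rests on about 2 fragments. Bmp3, a member of the BMP family, went from 0.172 and 0.415 FPKM to 4.84 and 5.67 FPKM, and Sema3c, a secreted semaphorin, from 2.44 and 1.12 FPKM to 9.92 and 8.68 FPKM, with log2 changes of 3.83 ± 0.51 and 2.42 ± 0.37.

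Mest (ENSMUSG00000051855, chr6:30723547-30748465), an imprinted gene expressed from the paternal allele, had the highest level of the 12. It was at 79.6 and 78.7 FPKM at 96 h and at 383 and 385 FPKM at 108 h, a 4.85-fold higher mean and a log2 change of 2.28 ± 0.30 (adjusted p = 2.1e-06), and the replicates of each stage were nearly equal. Mest shares 912 bases with Copg2 on the other strand, and Copg2 was listed at 0 from 108 h on, and the part of the shared stretch in the change of Mest was not tested. Halr1, a long non-coding RNA beside the HoxA cluster, was at 3.47 and 9.53 FPKM and then at 26.4 and 33.9 FPKM, and Dact2, which binds Dishevelled, at 3.98 and 9.15 FPKM and then at 25.1 and 29.7 FPKM.

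**Figure D2:**
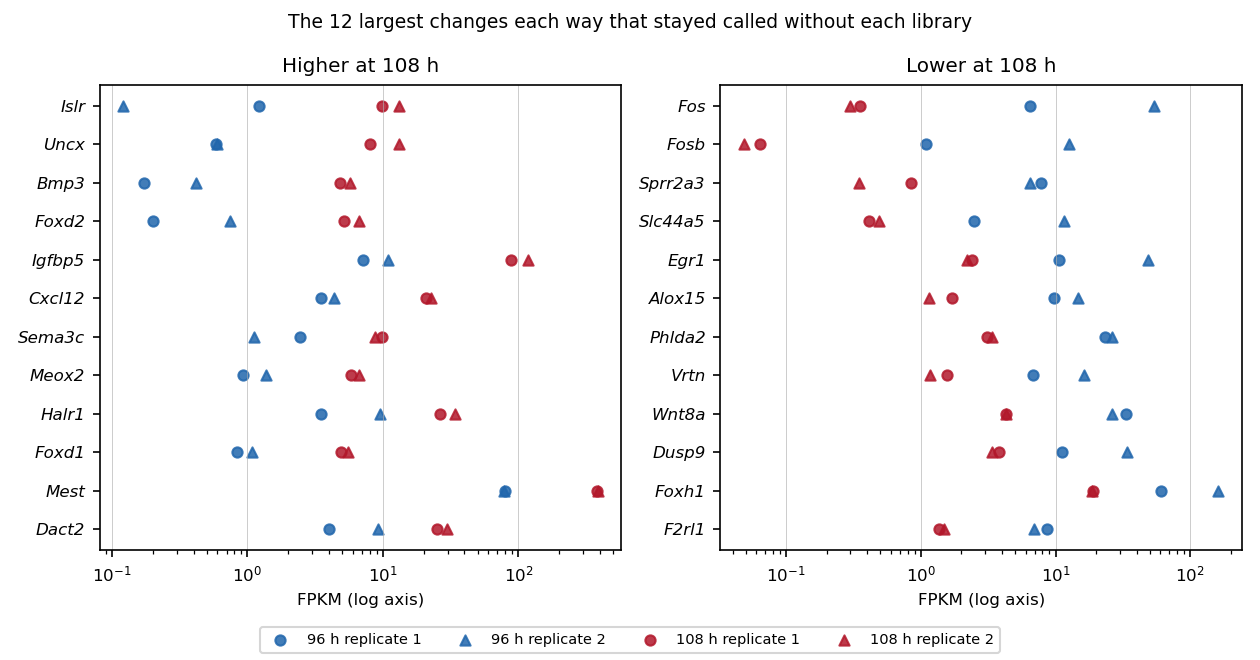
FPKM on a log axis in each of the 4 libraries, for the 12 largest rises (left) and falls (right) among genes called without each library and above 0 in all of them. Blue marks 96 h and red 108 h, with circles for replicate 1 and triangles for replicate 2. In no gene do the 2 stages overlap, as in every gene of the set they were picked from. Fosb and Fos show the widest gaps between the 96 h replicates on the right.

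The largest falls on the same terms were those of Fos, Fosb, Sprr2a3, Slc44a5, Egr1, Alox15, Phlda2, Vrtn, Wnt8a, Dusp9, Foxh1 and F2rl1. Among them were genes of the streak and its signals. Wnt8a, a Wnt ligand of the primitive streak, was at 33.6 and 26.3 FPKM at 96 h and at 4.29 and 4.32 FPKM at 108 h, a 6.96-fold higher mean at 96 h and a log2 change of -2.76 ± 0.31 (adjusted p = 2.1e-07). Foxh1 (ENSMUSG00000033837, chr15:76668225-76669948), the DNA-binding partner of Smad proteins downstream of Nodal, went from 60.996 and 162 FPKM to 18.9 and 18.6 FPKM, a log2 change of -2.40 ± 0.33 (adjusted p = 6.1e-06). Foxh1 fell from a different height in each 96 h library to the same level in both 108 h libraries. Phlda2, an imprinted gene expressed from the maternal allele, was at 23.2 and 26.1 FPKM and then at 3.10 and 3.36 FPKM, with a log2 change of -2.89 ± 0.60. Dusp9, a phosphatase of ERK kinases, was at 11.1 and 33.9 FPKM and then at 3.79 and 3.35 FPKM, and Vrtn, which is known for its part in setting vertebral number, at 6.79 and 16.3 FPKM and then at 1.56 and 1.18 FPKM, with log2 changes of -2.41 ± 0.41 and -2.87 ± 0.44.

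The immediate early genes Fos, Fosb and Egr1, which cells induce within minutes of a stimulus or of handling, were among these falls but scattered widely at 96 h. Fos (chr12:85473890-85477273) was at 6.48 and 53.6 FPKM at 96 h and at 0.355 and 0.300 FPKM at 108 h, with a log2 change of -5.46 ± 0.84 (adjusted p = 2.9e-05). In the 4 other wild-type 96 h libraries it was at 0.747 to 1.15 FPKM, below both 96 h libraries of the time course, and at 120 h in the time course it was at 41.3 and 12.6 FPKM. Egr1 was at 10.6 and 48.4 FPKM and then at 2.39 and 2.18 FPKM, against 2.48 to 4.83 FPKM in the outside libraries of 96 h. Fos and Egr1 were thus called in every fit that left out 1 library of the 4, yet their 96 h levels lay above those of the other libraries of that stage. Fosb was at 1.10 and 12.7 FPKM at 96 h and, at 0.0641 and 0.0487 FPKM, rested on about 1 fragment or fewer in each library of 108 h.

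Of the remaining falls, Sprr2a3, a small proline-rich protein of epithelia, went from 7.85 and 6.43 FPKM to 0.848 and 0.349 FPKM, and Alox15, a lipoxygenase, from 9.76 and 14.7 FPKM to 1.71 and 1.159 FPKM. F2rl1, the protease-activated receptor PAR2, was at 8.62 and 6.95 FPKM and then at 1.37 and 1.48 FPKM, and Slc44a5, a choline transporter-like protein, at 2.46 and 11.6 FPKM and then at 0.414 and 0.489 FPKM. In Slc44a5 the 96 h libraries differed more from each other than in the other 3 genes, which had log2 changes between -3.46 and -2.36.

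Several of the largest differences came from genes listed at exactly 0 in one stage, so they are given as values without a fold. Atf5, a bZIP factor of stress responses, was listed at 0 in both 96 h libraries and at 58.5 and 44.2 FPKM at 108 h. Pltp, a phospholipid transfer protein, was listed at 0 in both 96 h libraries and at 9.76 and 11.98 FPKM at 108 h. Copg2, a subunit of the COPI vesicle coat, was at 33.5 and 27.98 FPKM at 96 h and listed at 0 in both libraries of 108 h. Tuba4a, an alpha-tubulin, was at 15.3 and 16.1 FPKM and then listed at 0 in both.

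Such zeros were found in further genes. In all, 18 genes were listed at 0 in both libraries of one stage while at 5 FPKM or more in both of the other, 7 of them at 96 h and 11 at 108 h. Of these, 12 (66.7%) overlapped the position of another gene of the comparison, compared with 1692 (14.2%) of all 11923 genes, and the pairs included Atf5 with Nup62, Copg2 with Mest, Pltp with Ctsa and Tuba4a with Stk16. Copg2 was listed at 0 in all 10 time-course libraries from 108 h on and was between 27.98 and 33.9 FPKM in the 6 before. Atf5 was listed at 0 in 1 of the 2 libraries at 120 h and was at 44.9 FPKM in the other. Cufflinks gave a status other than OK to 5 genes in 96 h replicate 2, and to 0 in 96 h replicate 1 and in each 108 h library. An exact 0 in such tables can be an estimate that failed or was given to the overlapping gene, which was not tested. Among the 12 largest rises and 12 largest falls of called genes with a symbol other than a model name, Hoxa9 and Hoxc9 were listed at 0 in 96 h replicate 2, Ubxn6 in 96 h replicate 1, Ccdc115, Mapkapk5 and Surf2 in 108 h replicate 1, Prpf39 in 108 h replicate 2, and Kifc2, Mtif3 and Prss8 in both libraries of 108 h.

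Promoter sequences are shown for Atf5, Pltp, Copg2 and Tuba4a, which had the largest rises and falls by log2 change among called genes whose symbol is not a gene model name, and, chosen after seeing their values, for Uncx and Fos, as the somite gene and the immediate early gene with the largest changes among those above 0 in all libraries. They run 250 bases before to 50 bases after the annotated start in RefSeq, on build GRCm38.p6 (mm10), 5′ to 3′ on the strand of the gene, and capitals mark a match to 1 of the 7 motifs searched on either strand. The windows are chr7:44816609-44816908 on the minus strand for Atf5, chr2:164857659-164857958 on the minus strand for Pltp, chr6:30896745-30897044 on the minus strand for Copg2, chr1:75219245-75219544 on the minus strand for Tuba4a, chr5:139543648-139543947 on the plus strand for Uncx and chr12:85473640-85473939 on the plus strand for Fos.
Atf5: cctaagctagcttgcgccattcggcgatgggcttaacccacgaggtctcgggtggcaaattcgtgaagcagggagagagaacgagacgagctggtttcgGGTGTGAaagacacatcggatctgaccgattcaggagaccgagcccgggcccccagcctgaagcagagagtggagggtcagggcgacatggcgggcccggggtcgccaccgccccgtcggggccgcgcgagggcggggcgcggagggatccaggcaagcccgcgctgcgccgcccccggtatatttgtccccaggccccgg
Pltp: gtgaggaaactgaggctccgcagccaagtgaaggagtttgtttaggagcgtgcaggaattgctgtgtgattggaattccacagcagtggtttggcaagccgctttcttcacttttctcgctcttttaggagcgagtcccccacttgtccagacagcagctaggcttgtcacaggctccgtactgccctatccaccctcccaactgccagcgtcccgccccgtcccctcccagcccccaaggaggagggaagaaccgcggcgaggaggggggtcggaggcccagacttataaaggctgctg
Copg2: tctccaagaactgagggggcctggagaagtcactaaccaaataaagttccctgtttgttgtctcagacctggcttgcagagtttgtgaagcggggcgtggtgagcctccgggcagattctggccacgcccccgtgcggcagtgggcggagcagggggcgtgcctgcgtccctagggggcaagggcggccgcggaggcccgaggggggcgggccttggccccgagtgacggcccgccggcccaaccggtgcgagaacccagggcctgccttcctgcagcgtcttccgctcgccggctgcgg
Tuba4a: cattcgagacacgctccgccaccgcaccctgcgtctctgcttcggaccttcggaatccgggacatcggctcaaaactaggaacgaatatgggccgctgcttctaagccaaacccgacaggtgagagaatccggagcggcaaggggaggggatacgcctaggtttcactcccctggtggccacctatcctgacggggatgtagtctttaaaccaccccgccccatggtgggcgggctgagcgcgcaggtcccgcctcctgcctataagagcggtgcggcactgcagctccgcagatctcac
Uncx: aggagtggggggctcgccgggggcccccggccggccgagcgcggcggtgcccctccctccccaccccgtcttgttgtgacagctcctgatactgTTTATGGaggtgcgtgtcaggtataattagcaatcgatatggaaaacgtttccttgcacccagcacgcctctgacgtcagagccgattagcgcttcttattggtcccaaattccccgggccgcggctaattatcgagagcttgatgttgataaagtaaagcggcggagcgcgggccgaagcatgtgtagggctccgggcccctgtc
Fos: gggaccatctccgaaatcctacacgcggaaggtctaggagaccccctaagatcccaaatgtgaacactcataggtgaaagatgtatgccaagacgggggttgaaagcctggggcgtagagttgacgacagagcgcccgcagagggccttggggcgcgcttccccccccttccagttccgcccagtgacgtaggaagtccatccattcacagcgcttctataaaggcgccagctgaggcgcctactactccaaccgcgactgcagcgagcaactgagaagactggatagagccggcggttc

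In the window of Atf5 the capitals mark TCACACC, a T-box motif, and in that of Uncx they mark TTTATGG, a CDX motif. The windows of Pltp, Copg2, Tuba4a and Fos held none of the 7 motifs, which says only that these letters are not in them. Of the 11923 genes, 8971 had a RefSeq promoter under their symbol, among them 536 of the genes that rose and 564 of those that fell. The TCF/LEF motif CTTTGAT was found in 3.01% of all of these promoters, in 3.73% of the genes that rose and in 1.77% of those that fell, and CTTTGAA in 4.16%, 3.92% and 4.43%. The CDX motif TTTATGG was found in 2.01%, 1.87% and 1.95%, the T-box motif TCACACC in 3.82%, 3.92% and 3.55%, and the nuclear receptor motif AGGTCA in 14.1%, 12.9% and 15.1%. The octamer ATGCAAAT was found in 1.58%, 1.87% and 1.95%, and the GATA motif AGATAA in 7.07%, 5.97% and 8.51%. All of these shares are a description with no test, and a match is not a site.

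To describe the stages by gene group, the measured genes (those included by the level of 1 FPKM) of 29 lists of cell type markers, pathways and complexes were counted, each against the shares of 5.87% higher and 6.18% lower over all genes and their median log2 change of 0.00. A gene that was included only through the stage where it is high had to differ, so that these counts are a description. Among the lists with at least 10 measured genes, that of the Hox genes of groups 5 to 9 had the largest share of calls. Of 15 measured Hox genes of paralog groups 5 to 9, 11 rose and none fell, with a median log2 change of 2.18. These were Hoxa6, Hoxa9, Hoxb7, Hoxb8, Hoxb9, Hoxc5, Hoxc6, Hoxc8, Hoxc9, Hoxd8 and Hoxd9. The count rested on the low values in 96 h replicate 2, since all 15 genes were lower there than in replicate 1, with a median log2 difference of -3.37. Without replicate 2, 2 of the 15 rose and the median was 0.40, and without replicate 1, 14 rose and the median was 3.33. Hoxb8 had a log2 change of 1.52 with all libraries and of -0.08 without replicate 2.

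Within this group the genes differed in how far their change rested on 96 h replicate 2. Hoxc9 was at 0.936 FPKM and listed at 0 at 96 h, and at 6.11 and 7.85 FPKM at 108 h, and Hoxa9 was at 1.33 FPKM and listed at 0, and then at 6.99 and 16.5 FPKM. Both were called without each library and lay above both 96 h libraries by several-fold. Hoxb9, by contrast, was at 115 and 5.53 FPKM and then at 107 and 124 FPKM, with a log2 change of 2.18 ± 0.58 that became -0.00016 without replicate 2, and 108 h replicate 1 lay below 96 h replicate 1. Hoxc8, at 25.2 and 0.571 FPKM and then 29.6 and 37.3 FPKM, was likewise set apart from 96 h mainly by 96 h replicate 2. Hoxc6 lay between these kinds, at 6.49 and 0.328 FPKM and then 14.3 and 20.2 FPKM, above both 96 h libraries but further from replicate 2.

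Of 12 genes of groups 10 to 13, 2 were measured, both included through 108 h only, so that the inclusion fixed their direction. Hoxc10 was at 0.0252 and 0.0266 FPKM at 96 h and at 1.49 and 2.06 FPKM at 108 h, which is about 1 fragment in each 96 h library, and Hoxa10 was at 0.208 and 0.183 FPKM and then at 0.863 and 1.20 FPKM. Of 12 genes in groups 1 to 4, 1 rose (Hoxc4) and 1 fell (Hoxa4, listed at 0 in 3 of the 4 libraries), with a median of -0.08, and without 96 h replicate 2 none passed in either direction. In the HoxD cluster, Hoxd8 was at 2.71 and 0.790 FPKM and then at 7.23 and 7.92 FPKM, and Hoxd9 at 2.01 and 0.869 FPKM and then at 8.43 and 11.0 FPKM, whereas Hoxd1, Hoxd3 and Hoxd4 did not pass the test.

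Markers of neuro-mesodermal progenitors and the tail bud showed the same dependence on 1 library. Of 16 such genes, 4 rose (Cdx4, Epha5, Fgf17, Hoxb9) and 1 fell (Cdx1), with a median of 0.26, but without 96 h replicate 2 none rose, 3 fell and the median was -0.60, and without replicate 1, 8 rose, none fell and it was 1.10. Replicate 2 was below replicate 1 in 15 of the 16. Epha5 had a log2 change of 1.80, or -0.24 without replicate 2. Cdx4 was at 46.8 and 0.953 FPKM and then at 51.3 and 54.0 FPKM, a log2 change of 2.91 ± 0.77 (adjusted p = 0.012) that was 0.17 without replicate 2. Cdx1, a homeobox factor downstream of Wnt and retinoic acid, went from 194 and 88.0 FPKM to 52.0 and 55.5 FPKM, a log2 change of -1.28 ± 0.31 (adjusted p = 0.0052). Both 108 h libraries of Cdx1 lay below both of 96 h. Cdx2 measured 112 and 25.3 FPKM at 96 h and 76.3 and 80.7 FPKM at 108 h, and its difference did not pass the test.

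Somite genes rose in part. Of 13 measured somite markers, 4 rose, among them Meox1, Meox2 and Uncx, and 1 fell (Aldh1a2), with a median of 0.65, and all 13 were higher in 96 h replicate 2 than in replicate 1, so that the median was 1.30 without replicate 2 and 0.08 without replicate 1. Meox1, a homeobox factor of the early somite, was at 86.5 and 186 FPKM and then at 299 and 314 FPKM, a log2 change of 1.27 ± 0.35 (adjusted p = 0.017). Thus the 108 h libraries exceeded both 96 h libraries for Meox1 as well as for Uncx and Meox2, of which Uncx and Meox2 were called without each library.

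Aldh1a2, the main enzyme that makes retinoic acid in the trunk, moved the other way among the somite genes. It was at 330 and 841 FPKM at 96 h and at 164 and 148 FPKM at 108 h, with a log2 change of -1.76 ± 0.39 (adjusted p = 0.0024), or -1.08 (adjusted p = 0.18) without 96 h replicate 2. Of 10 genes of the retinoic acid pathway, 3 fell and 1 rose. Crabp1, a cellular retinoic acid-binding protein, went from 507 and 803 FPKM to 318 and 378 FPKM. Dhrs3, which reduces retinaldehyde, rose. The list's median was 0.26, so that it differed in sign from the balance of its calls, and without 96 h replicate 2, 1 gene fell, none rose and the median was 0.05.

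In the presomitic mesoderm and the segmentation clock, 3 of 17 genes fell (Axin2, Dll1, Rspo3) and 1 rose (Hes1), with a median of -0.32. Without 96 h replicate 2, 4 fell and 1 rose, and without replicate 1, 2 rose and none fell, with medians of -0.49 and -0.26. Dll1, a Notch ligand, was at 239 and 156 FPKM and then at 118 and 122 FPKM, while Hes1, a Notch target, was at 16.8 and 16.3 FPKM and then at 25.6 and 32.2 FPKM. Rspo3, a Wnt amplifier, was at 60.8 and 49.8 FPKM and then at 35.5 and 32.1 FPKM, and Axin2, a Wnt target that is part of the clock, at 61.4 and 48.7 FPKM and then at 36.3 and 45.5 FPKM. In each of these 4 genes the stages did not overlap.

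Genes of pluripotency, streak, endoderm and heart had medians below 0, and the calls among them were all in the lower direction. Of 13 pluripotency genes, 2 fell (Klf4, Pou5f1) and none rose, with a median of -0.48, or 1 and -0.27 without 96 h replicate 2. Pou5f1, the octamer-binding factor Oct4, was at 34.7 and 63.3 FPKM and then at 11.1 and 10.3 FPKM, a log2 change of -2.12 ± 0.62 (adjusted p = 0.023, or 0.26 without 96 h replicate 2). Of 16 epiblast and streak genes, 4 fell (Dnmt3b, Eomes, Gata6, Mixl1), with a median of -1.27, or 2 and -0.65 without 96 h replicate 2. Dnmt3b, a de novo DNA methyltransferase of the epiblast, was at 55.0 and 63.7 FPKM and then at 40.8 and 39.3 FPKM, a small fall of 0.56 on the log2 scale that was called without each library, whereas Gata6, at 0.802 and 11.2 FPKM and then 0.393 and 0.555 FPKM, owed its call to replicate 2.

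Of 12 endoderm and notochord genes, 2 fell (Cdh1, Trh) and the median was -1.39. All 12 were higher in 96 h replicate 2, by a median of 1.73, and the list's median was -0.69 without that library and -2.43 without replicate 1. Cdh1, the epithelial cadherin, was at 21.3 and 42.4 FPKM and then at 5.89 and 5.70 FPKM, a log2 change of -2.36 ± 0.44 (adjusted p = 0.00041) that was called without each library, while Trh, the precursor of thyrotropin-releasing hormone, was at 72.5 and 457 FPKM and then at 31.1 and 32.5 FPKM. Of 5 cardiac genes, 4 fell (Gata4, Hand1, Isl1, Myl7), and these calls rested on replicate 2. Myl7 was at 0.519 and 18.01 FPKM and then at 0.207 and 0.107 FPKM, Gata4 at 0.219 and 6.69 FPKM and then at 0.116 and 0.0977 FPKM, and Hand1 at 0.101 and 5.54 FPKM and then at 0.0527 and 0.0547 FPKM, and without that library none of the 5 fell and 1 rose. In lateral and intermediate mesoderm, Osr1 and Bmp4 fell and Wt1 rose among 6 genes, and without 96 h replicate 2 only Wt1 passed. Wt1, a zinc finger factor of the urogenital ridge, was at 0.0394 and 0.148 FPKM, which rests on fewer than 2 fragments in each library, and then at 1.21 and 1.85 FPKM, and was called without each library.

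**Figure D3:**
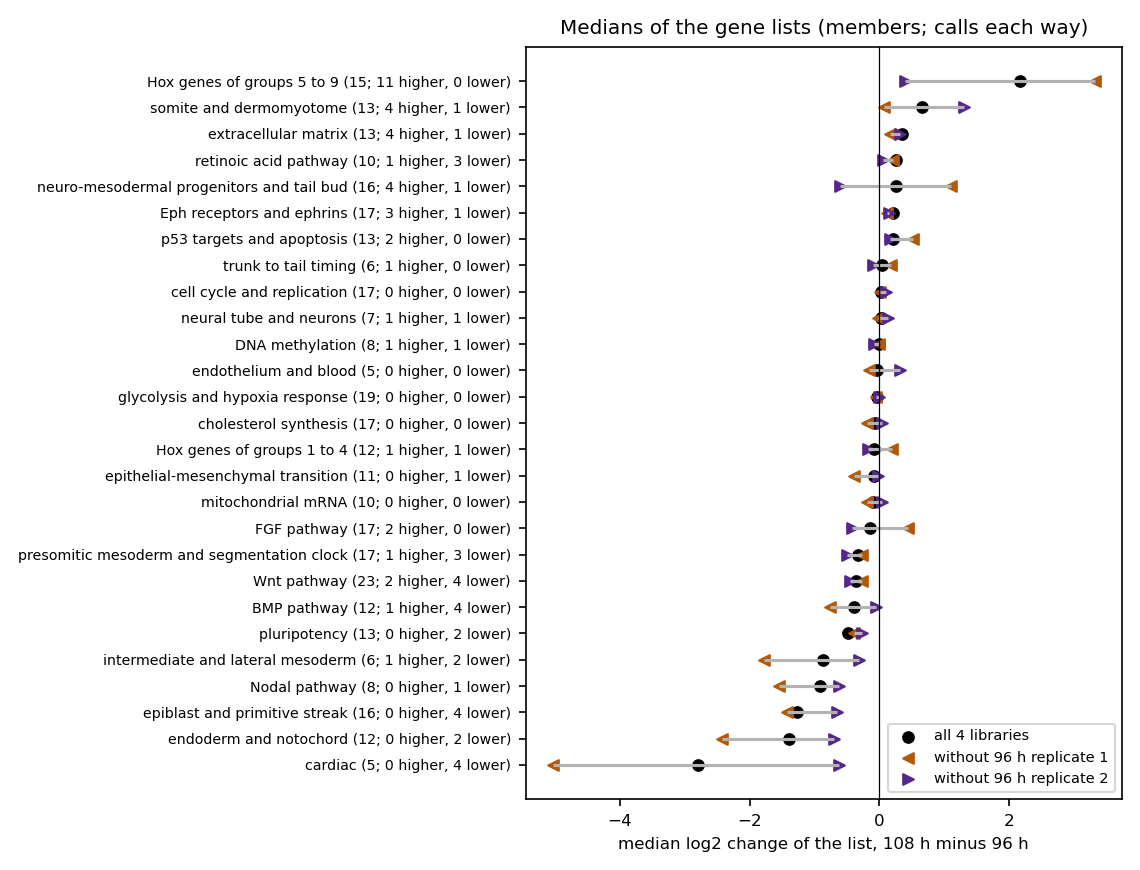
Median log2 change from 96 h to 108 h of each gene list with at least 5 measured members, with black points for all 4 libraries and triangles for the fits without 1 of the 96 h libraries. The Hox genes of groups 5 to 9 run from 0.40 without replicate 2 to 3.33 without replicate 1, and the cardiac list, at -2.79 with all libraries, from -0.62 to -5.04.

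In the signaling pathways, calls fell in both directions. Of 12 BMP genes, 4 fell (Bmp4, Bmp7, Id1, Id3) and 1 rose (Id2), with a median of -0.39. Without 96 h replicate 2, 1 fell and 1 rose and the median was -0.06, and without replicate 1, 7 fell and none rose and it was -0.77. Id3, an inhibitor of bHLH factors, went from 51.6 and 45.4 FPKM to 23.4 and 24.4 FPKM, a log2 change of -1.01 ± 0.20 (adjusted p = 0.00078) that was called without each library, while Id2, of the same family, went from 13.3 and 17.5 FPKM to 21.4 and 25.0 FPKM. Of 23 Wnt genes, 4 fell (Axin2, Rspo3, Tcf7, Wnt8a) and 2 rose (Ccnd1, Sfrp2), with a median of -0.36. Without 96 h replicate 2, 6 fell and none rose, with a median of -0.44, and without replicate 1, 3 fell and 4 rose, with one of -0.26. Of 8 Nodal genes, Foxh1 fell and the median was -0.92.

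In the FGF pathway, 2 of 17 genes rose and none fell, with a median of -0.15, but without 96 h replicate 2 none rose, 2 fell and the median was -0.42, and without replicate 1, 5 rose, 2 fell and it was 0.44. Fgf18 was at 11.0 and 8.35 FPKM and then at 31.7 and 35.5 FPKM, and Fgf17, a tail bud ligand, at 24.01 and 4.75 FPKM and then at 27.0 and 35.0 FPKM, so that the 2 ligands differed in how far the first 96 h library lay from 108 h. Among 6 genes of the switch from trunk to tail, Gdf11, a TGF-beta ligand that times posterior Hox activity, rose, from 17.8 and 4.73 FPKM to 23.2 and 25.6 FPKM, where 96 h replicate 2 again was the low library, and without that library none of the 6 rose and 2 fell.

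Matrix genes and Eph receptors changed in both directions. Of 13 matrix genes, 4 rose (Col1a2, Col2a1, Fbn2, Lamc1) and Fn1 fell, or 3 and none without 96 h replicate 2. Fbn2, a fibrillin of embryonic microfibrils, went from 11.5 and 14.8 FPKM to 48.9 and 43.8 FPKM, and Col2a1, the main collagen of cartilage and notochord sheath, from 7.83 and 4.02 FPKM to 17.8 and 21.3 FPKM, with log2 changes of 1.82 and 1.77 that were called without each library. Fn1, fibronectin, was at 242 and 455 FPKM and then at 167 and 164 FPKM. Of 17 Eph receptors and ephrins, 3 rose (Epha5, Ephb2, Ephb3) and Epha4 fell, or 2 and none without 96 h replicate 2. Ephb3 was at 4.34 and 5.68 FPKM and then at 11.7 and 12.1 FPKM and was called without each library. Of 11 genes of epithelial-mesenchymal transition, Cdh1 fell and none rose, or 1 each without 96 h replicate 2.

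Metabolic and housekeeping lists had medians close to that of all genes. In limma none of 19 genes of glycolysis and the hypoxia response passed the adjusted threshold (1 higher and 1 lower at an unadjusted p under 0.05), with a median of -0.03. None of 17 genes of cholesterol synthesis passed (1 higher and 0 lower unadjusted), with a median of -0.07, none of 17 genes of cell cycle and replication (3 higher and 0 lower unadjusted), with a median of 0.03, and none of the 10 mitochondrial mRNAs (0 in either direction unadjusted), with a median of -0.09. None of 5 genes of endothelium and blood (0 in either direction unadjusted; median -0.03) and none of 3 germ cell genes (1 lower unadjusted; median -0.74) passed either. Of 13 p53 targets, Eda2r and Sesn2 rose, Sesn2 without each library too, and none fell. Of 8 genes of DNA methylation, Tet3 rose and Dnmt3b fell, and of 7 neural tube genes Pax7 rose and 1 other fell. Without 96 h replicate 2 the p53 list had 1 rise, the methylation list 1 fall and no rise, and the neural tube list no call.

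Genes of chromatin looping had small changes. Ctcf, which binds insulators, was at 53.6 and 62.3 FPKM at 96 h and at 58.8 and 58.2 FPKM at 108 h, with a log2 change of 0.02. The cohesin subunits and loader Rad21, Nipbl, Smc1a and Smc3 had log2 changes of 0.00, -0.11, -0.15 and -0.17. Mtx2 and Lnpk, the genes that flank the HoxD cluster on either side, had log2 changes of 0.07 and -0.19. In limma none of these 7 genes passed the adjusted threshold, and 0 had an unadjusted p under 0.05.

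Over the 8 stages of the time course, 534 of the 700 genes that rose had their highest mean after 108 h, 124 at 108 h and 42 before 96 h. Of the 737 that fell, 445 had it at 72 h or 84 h, 200 at 96 h and 92 after 108 h. Over all 11923 genes the highest mean came before 96 h in 4459, at 96 h in 888, at 108 h in 753 and later in 5823, and the calls leave no gene of the first group at 96 h and none of the second at 108 h. At 120 h the mean was above that of 108 h in 388 of the genes that rose (55.4%) and in 53.7% of all genes, and below it in 225 of those that fell (30.5%) and in 45.9% of all genes, shares that use the same 108 h libraries as the calls and are a description. Individual genes differed in this. Among the genes described above, Igfbp5 was at a mean of 414 FPKM at 120 h, Cxcl12 at 161 FPKM and Mest at 887 FPKM, each above its 108 h level. Sprr2a3 had been at a mean of 165 FPKM at 84 h, so that its fall began before 96 h.

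**Figure D4:**
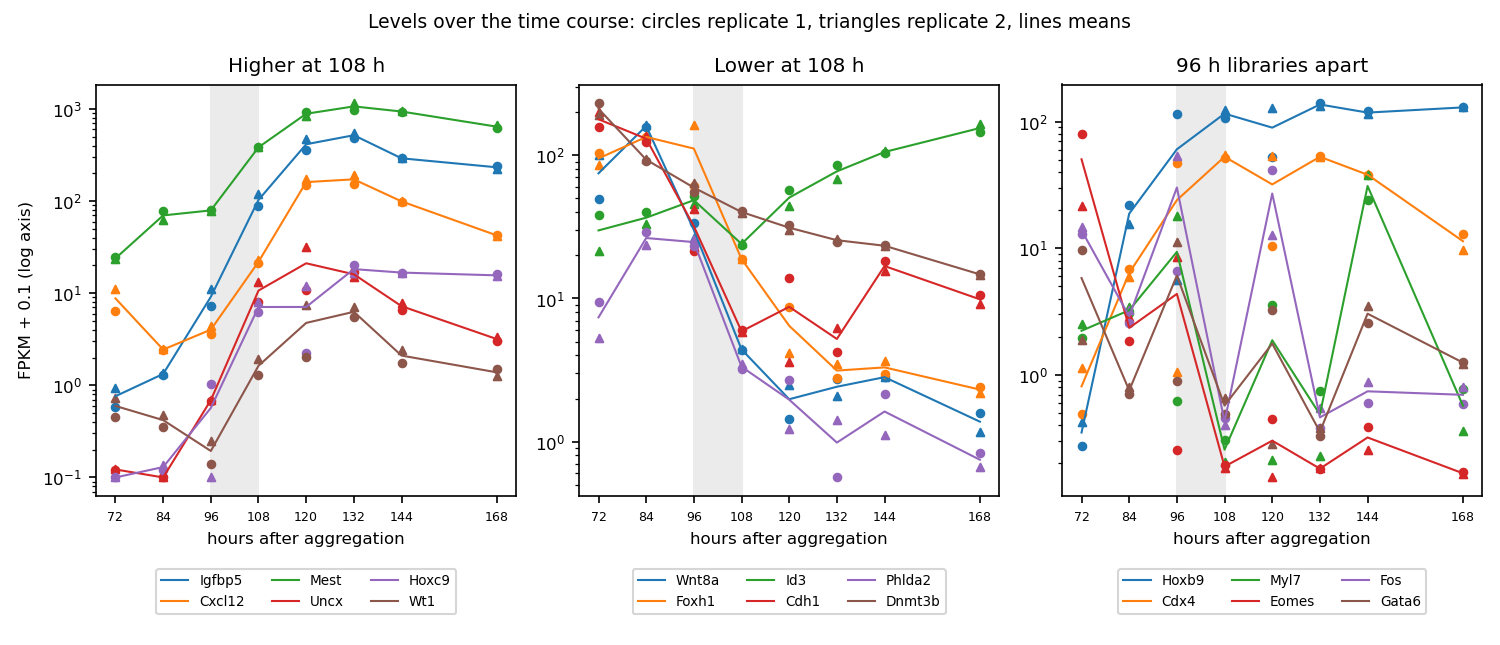
FPKM plus 0.1 on a log axis against hours after aggregation, with circles for replicate 1, triangles for replicate 2, lines through the means and grey from 96 h to 108 h. Igfbp5, Cxcl12 and Mest continue to climb at 120 h, Wnt8a, Foxh1 and Phlda2 drop between 96 h and 108 h, and in the right panel Hoxb9, Cdx4, Myl7, Eomes, Fos and Gata6 show 96 h replicates far apart.

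The other wild-type libraries, 4 of 96 h and 4 of 120 h, gave a comparison with no library in common, although over a longer interval. Of the 700 genes that rose, 659 (94.1%) were higher at 120 h than at 96 h there, with a median log2 change of 0.59, and of the 737 that fell, 619 (84.0%) were lower, with a median of -0.43. Over all 11923 genes 54.3% were higher, with a median of 0.03. In limma, 524 of the 700 and 425 of the 737 passed the threshold in the same direction, and 7 and 16 in the opposite one. Of all 11923 genes, 2257 passed it there as higher and 1731 as lower. Of the genes called without each library, 147 of 148 (99.3%) were higher and 157 of 161 (97.5%) lower, with medians of 1.497 and -1.07. Of the calls lost without 96 h replicate 2, 408 of 441 (92.5%) were higher and 374 of 480 (77.9%) lower.

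Igfbp5 went from between 1.45 and 4.16 FPKM in the outside libraries of 96 h to between 239 and 415 FPKM at 120 h, and Mest from between 34.8 and 68.8 FPKM to between 588 and 1241 FPKM. Wnt8a went from between 23.1 and 30.5 FPKM to between 2.197 and 4.39 FPKM, and Foxh1 from between 36.6 and 58.4 FPKM to between 1.97 and 6.08 FPKM. In these 4 genes, picked from among the largest changes, the ranges of the 2 stages did not overlap. How many of all genes were separated in this way in the outside libraries was not counted. Hoxb9 was between 49.7 and 61.9 FPKM at 96 h and between 76.8 and 129 FPKM at 120 h, and Copg2 was between 28.03 and 31.7 FPKM at 96 h and listed at 0 in all 4 libraries of 120 h. Fos, at 0.747 to 1.15 FPKM and then 0.302 to 0.623 FPKM, did not pass the test there.

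**Figure D5:**
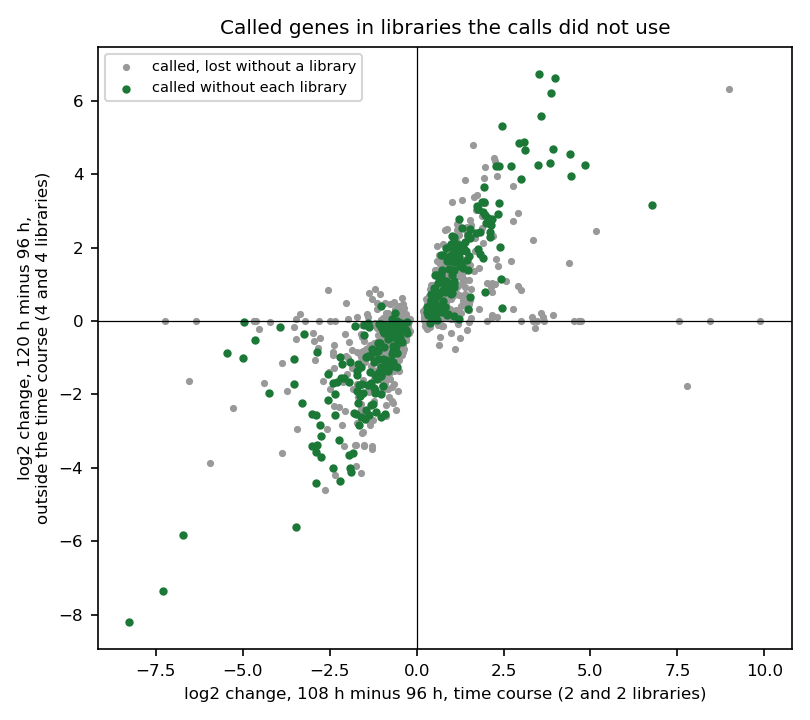
Log2 change of each called gene from 96 h to 108 h in the time course (horizontal) against its log2 change from 96 h to 120 h in the other wild-type libraries (vertical). Green points, the genes called without each library, lie in the upper right quadrant in 147 of 148 higher genes and in the lower left in 157 of 161 lower genes, while more of the grey points, calls lost when a library was left out, cross the horizontal line.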

How the data were processed

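Expression tables of 61 libraries, wild-type and mutant, were used, in 28 conditions taken from the sample titles. Poly-A RNA was made into stranded libraries by the authors and read from both ends over 75 bases. After trimming in cutadapt 1.16, reads went to STAR 2.7.7a for alignment to mm10, uniquely mapped ones were kept, and Cufflinks 2.2.1 was run at its defaults on a gtf built on Ensembl 102. The deposited values are FPKM per gene, scaled by the authors to transcript length and mapped fragments, without counts.

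The log2(FPKM + 0.1) values of all 61 libraries were fitted in limma 3.58.1 (R 4.3.3, data.table version 1.17.8) with 1 coefficient per condition, over 17098 genes with a mean of at least 1 FPKM in 1 condition. The contrast of 108 h with 96 h was two-sided, with Benjamini-Hochberg adjustment across the tested genes and a threshold of 0.05. The fit was also run on simulated data in which each gene had the same spread in all conditions. That simulation therefore cannot show how the fit behaves with the wider spread between replicates of 96 h and 108 h. Replicate numbers shared between stages were not taken to mark shared samples, since the labels do not say that they do. Depth was inferred from the confidence bounds that Cufflinks wrote, over genes with 1 transcript, with 200 bases taken off the length, and 90.5% to 92.7% of low values then came out as whole fragments within 0.02. Without that subtraction it was 19.6 to 21.0 M (mega) fragments. Depth limits cover counting error only. Gene structures came from GENCODE vM21 and promoters from RefSeq.

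Genes were named by rule: the 12 largest rises and 12 largest falls among called genes with a symbol other than a gene model name, groups that did not overlap and a mean of at least 5 FPKM at the higher stage, the genes of 29 lists and the genes the paper names. The members and lists were chosen with earlier results of these data known. The 12 and 12 genes called without each library, the promoters of Uncx and Fos, 6 further lists and Apln and Aplnr were chosen after seeing the values. Other settings of filter, pseudocount, scaling, moderation and libraries were tried. Remaining values were computed in Python 3.11.15 with numpy 2.4.6, scipy 1.17.1 and pandas 2.3.3, and figures drawn in matplotlib 3.10.9. Other assays were not analysed here. Results of some genes are not reported here.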

Additional observations from a re-analysis of the deposited data

Results flagged for a closer look

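In the wild-type libraries that were not part of the time course, the highest or lowest of the 4 libraries at a stage was tested with Dixon's test for the 23 genes whose values there were tabulated, in 46 groups. Chance flags about 1 in 20 such groups, and 7 were found. Groups of 2 libraries, as in the time course, are too small for it. Fos was at 1.15 FPKM in 1 library of 96 h, and Cdh1, in the opposite direction, at 15.1 FPKM in 1 library of that stage, below the others. Copg2 was at 31.7 FPKM in 1 library of 96 h, where the lowest was at 28.03 FPKM. Aldh1a2 was at 36.0 FPKM in 1 library of 120 h, where the median was 17.7 FPKM. Pou5f1 was at 80.9 FPKM in 1 library of 96 h and at 58.6 FPKM in 1 library of 120 h, against medians of 30.5 FPKM and 9.18 FPKM, so that its fall between stages overlapped in these libraries. Atf5 was listed at 0 in 1 library of 120 h, with a median of 34.0 FPKM, and was listed at 0 in all 4 libraries of 96 h. The cause of these values was not tested.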

How the results depend on the processing

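With all 61 libraries 700 genes were higher and 737 lower. Fits on fewer libraries gave 344 and 400 (time course), 227 and 262 (wild type) and 19 and 16 (the 4 libraries alone). Leaving out 1 of the 4 libraries gave 338 to 1063 higher and 342 to 952 lower genes, and 148 and 161 were called in all 4 such fits, an alternative chosen after seeing the data. With a replicate block the counts were 283 and 338. Samples of 96 h and 108 h with the same replicate number had a correlation of deviations of 0.04, and over 28 pairs of stages it was -0.13 to 0.20, above 0.1 in 3, so that the numbers were not taken as pairing. Without 96 h replicate 2 the log2 change turned in Epha5 (-0.24), Hoxb8 (-0.076) and Hoxb9 (-0.00016), against 3.84, 3.12 and 4.36 without replicate 1. Counts stayed within 1.5 times under a pseudocount of 1 or 0.01, no filter or one at 5 FPKM, adjustment over the 11923 genes alone, upper-quartile or median-ratio scaling, a variance trend, robust moderation and without genes listed at 0 (chosen after seeing the data), with 537 to 851 higher and 565 to 942 lower genes. In the outside libraries, genes lower by at least 1 on the log2 scale had the same sign in 90.1%. Depth limits genes under 1 FPKM, where 1 to 3 fragments can set a value.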

Other observations

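Further gene groups were put together after the values had been seen and are therefore described without a test of the group. Their counts stand beside the same shares over all genes, 5.87% higher and 6.18% lower at 108 h. Of 25 measured genes of amino acid synthesis, amino acid uptake and the targets of Atf4, the factor that answers a shortage of amino acids, 14 rose and none fell, with a median log2 change of 0.87, or 0.75 and 8 risers without 96 h replicate 2. Psat1, an enzyme of serine synthesis, was at 176 and 149 FPKM at 96 h and at 293 and 302 FPKM at 108 h, and it and Sesn2, at 25.2 and 22.2 FPKM and then 42.4 and 47.1 FPKM, were called without each library. Asns, asparagine synthetase, was at 66.1 and 64.9 FPKM and then at 129 and 121 FPKM. The 14 include Atf5, which was listed at 0 in both 96 h libraries, as described above. In the outside libraries 6 of the 25 passed the test as higher at 120 h than at 96 h and 2 as lower, and their median was 0.21. Of all 11923 genes, 2257 passed there as higher and 1731 as lower, with a median of 0.03.

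Of 15 long RNAs and coding genes whose introns hold small nucleolar RNAs, 9 fell and none rose, with a median of -0.78, and all 15 had a change below 0. Zfas1 was at 71.4 and 72.1 FPKM and then at 27.8 and 31.6 FPKM, Gas5 at 352 and 357 FPKM and then at 183 and 231 FPKM, and Snhg12 at 38.8 and 31.1 FPKM and then at 10.6 and 13.5 FPKM. Of the 9, Eif4a2, Snhg12, Snhg15, Snhg5, Taf1d and Zfas1 belong to the stricter set. In the outside libraries 9 of the 15 passed the test as lower at 120 h and none as higher, with a median of -0.38. Of all 11923 genes, 1731 passed there as lower and 2257 as higher, with a median of 0.03. Summed over the 15, the outside libraries had 1542 to 2133 FPKM at 96 h and 1292 to 1599 FPKM at 120 h. In the time course the sums were 1337 and 1229 FPKM at 96 h, and 737 and 799 FPKM at 108 h.

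Receptors and effectors of Hedgehog signals rose in 4 of 10 genes (Boc, Cdon, Gas1, Gli2), with a median of 0.13. Cdon, a co-receptor, was at 4.68 and 5.92 FPKM and then at 12.8 and 12.01 FPKM, a log2 change of 1.22 ± 0.13 (adjusted p = 5.6e-08 in limma), and Boc, its relative, at 11.0 and 11.9 FPKM and then at 21.8 and 24.1 FPKM. Of 21 imprinted genes, 4 rose (Airn, Igf2, Mest, Plagl1) and 2 fell (Peg10, Phlda2), and of 10 genes of the IGF pathway 3 rose (Igf1r, Igf2, Igfbp5) and 2 fell (Igfbp3, Igfbp4). Igf2 was at 316 and 204 FPKM and then at 580 and 693 FPKM, and Igfbp4 at 68.1 and 80.9 FPKM and then at 28.03 and 34.0 FPKM. Of 16 immediate early genes, 5 fell (Ccn1, Dusp1, Egr1, Fos, Fosb) and 2 rose (Atf3, Jund), and without 96 h replicate 2, 3 fell and none rose. The ligand Apln, at 8.68 and 9.43 FPKM and then 3.91 and 3.15 FPKM, and its receptor Aplnr, at 55.8 and 81.8 FPKM and then 19.4 and 18.4 FPKM, both fell and were called without each library.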
